A study of Homo sapiens with 6 samples.

Results

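The genes described here are the subunits of the hypoxia-inducible factors (HIFs), the hydroxylases that make them sensitive to oxygen, and the partners that decide their fate. They were chosen by name, as the rows of the deposited gene table whose Ensembl identifier maps to HIF1A, EPAS1, HIF3A, ARNT, VHL, EGLN1, EGLN2, EGLN3, HIF1AN or CITED2. All 10 had a row, 1 row each, among 40295 rows in all. The study measured RNA in HDQ-P1, an established human carcinoma cell line, because Y-320 was studied there as an enhancer of readthrough of premature stop codons and its mode of action was little known. The untreated group is 3 libraries of HDQ-P1 cells that received no compound, and the Y-320 group is 3 libraries of the same line given Y-320 at 1 μM over 48 h. Both groups are 1 cell line grown in high-glucose medium with serum, and no source says that a solvent was added to the untreated cells, so compound and solvent cannot be told apart. The labels give neither an oxygen level nor whether the replicates are separate cultures, so p-values measure the spread between these libraries, which may be technical.

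A HIF is a pair of an alpha and a beta subunit that binds DNA and switches on genes for life at low oxygen. When oxygen is plentiful, the EGLN prolyl hydroxylases (also called PHD enzymes) modify the alpha subunit, the VHL protein recognises the mark, and its ubiquitin ligase sends the subunit to the proteasome. The asparaginyl hydroxylase encoded by HIF1AN (also called FIH) blocks binding of the coactivators CBP and p300 to the alpha subunit. Most of this control acts on the protein, which RNA-seq does not measure, but some of the genes are themselves HIF targets, EGLN1, EGLN3 and CITED2 among them.

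The libraries held 21045401 to 22740535 estimated counts. Values are given as normalized CPM, which are counts scaled to a shared library total with TMM factors. Each change is a log2 fold change of Y-320 over untreated from edgeR's quasi-likelihood test, fitted to all 16580 genes that passed a filter on low counts, with Benjamini-Hochberg adjustment over those genes and a threshold of 0.05. All 10 members passed the filter, with 6.81 to 5462 estimated counts per library. In bulk RNA, fewer cells of a kind and less RNA per cell cannot be told apart. The 6 epithelial markers summed to 7709 to 8033 normalized CPM untreated and 4605 to 4647 with Y-320. The 6 fibroblast markers, which also had reads in these libraries, came to 239.8 to 273.0 and 124.5 to 144.6. Of these, COL1A1, COL1A2 and LUM fell, while COL3A1, DCN and PDGFRA did not pass. The 5 leukocyte markers came to 1.34 to 2.14 and 1.95 to 2.11, with 2 of them at or under 3 counts in all libraries, and the 4 endothelial markers to 17.2 to 18.9 and 14.5 to 17.9. The sums hide opposite changes: among epithelial markers EPCAM rose (log2 fold change 0.38, edgeR adjusted p = 1.04e-06) while the other 5 fell, and among endothelial markers PECAM1 rose (1.22, edgeR adjusted p = 1.10e-04) and CDH5 fell (-1.29, edgeR adjusted p = 5.91e-07). The part of these shifts in the results was not tested.

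HIFs bind short DNA words with the core ACGTG or GCGTG, and the start regions of 5 of the 6 members that passed the test are shown here because several of the members are known targets of the factor they control. That of ARNT, which like EGLN3 held neither word, is not shown. HIF1A and CITED2 have more than 1 RefSeq start, and only the first is shown. The sequences are from RefSeq on GRCh38.p14 and run 5′ to 3′ up to the last base before the transcript start, with any stretch inside an annotated exon left out. Capitals mark each ACGTG or GCGTG on either strand, which may overlap where a word reads the same on both strands. HIF1A is at chr14:61695263-61695512 on the plus strand, EPAS1 at chr2:46297157-46297406 on the plus strand, EGLN1 at chr1:231422288-231422537 on the minus strand, EGLN3 at chr14:33951082-33951324 on the minus strand and CITED2 at chr6:139374649-139374898 on the minus strand.
HIF1A: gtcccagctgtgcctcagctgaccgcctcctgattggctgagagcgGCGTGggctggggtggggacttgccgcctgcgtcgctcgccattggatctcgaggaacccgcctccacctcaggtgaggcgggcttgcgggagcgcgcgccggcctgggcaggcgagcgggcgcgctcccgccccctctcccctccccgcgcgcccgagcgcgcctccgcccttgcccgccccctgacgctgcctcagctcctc
EPAS1: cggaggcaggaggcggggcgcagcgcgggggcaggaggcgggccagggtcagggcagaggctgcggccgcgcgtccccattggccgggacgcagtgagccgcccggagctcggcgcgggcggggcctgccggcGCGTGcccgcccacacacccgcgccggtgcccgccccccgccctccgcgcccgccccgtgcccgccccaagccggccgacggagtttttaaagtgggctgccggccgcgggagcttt
EGLN1: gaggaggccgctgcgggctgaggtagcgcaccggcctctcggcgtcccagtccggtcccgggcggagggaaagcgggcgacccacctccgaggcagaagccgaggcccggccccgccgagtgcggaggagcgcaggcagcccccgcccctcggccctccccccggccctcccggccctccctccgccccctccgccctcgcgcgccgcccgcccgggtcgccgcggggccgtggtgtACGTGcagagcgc
EGLN3: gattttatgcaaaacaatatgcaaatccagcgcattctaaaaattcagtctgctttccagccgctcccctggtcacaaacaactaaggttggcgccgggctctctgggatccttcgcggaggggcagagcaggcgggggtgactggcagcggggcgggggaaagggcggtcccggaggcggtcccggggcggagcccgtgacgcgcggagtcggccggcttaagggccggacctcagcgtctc
CITED2: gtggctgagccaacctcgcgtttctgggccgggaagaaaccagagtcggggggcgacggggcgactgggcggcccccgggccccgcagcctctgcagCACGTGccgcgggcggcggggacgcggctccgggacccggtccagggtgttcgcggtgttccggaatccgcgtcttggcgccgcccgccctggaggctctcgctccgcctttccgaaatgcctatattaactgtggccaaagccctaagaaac

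In windows from 250 bases before to 50 bases after each RefSeq start, 9 of the 10 members were matched, with 15 windows. EGLN1 held 1 ACGTG, which begins 13 bases before the start, and CITED2 and EGLN2 each held the word CACGTG, which contains ACGTG on both strands. The windows of the first HIF1A start and of EPAS1 held 1 GCGTG each and no ACGTG, while the other HIF1A window held neither. The first HIF3A window held 3 GCGTG. CITED2 held CACGTG only in its first window, and GCGTG in its other windows. The window of EGLN3 held neither. ACGTG on either strand was found in 3 of the 15 windows (20%), beside 21.4% of all 35116 promoter windows, and GCGTG in 5 (33.3%), beside 36.5%. By comparison, ACGTG was found in 14 of 30 windows (46.7%) of glycolytic HIF target genes and in 19 of 35 (54.3%) of other HIF target genes. GCGTG was found in 46.7% and 65.7% of the same windows. Windows of pathway partners and of other dioxygenases, listed below, held ACGTG in 24% and 28% and GCGTG in 56% of each. A match is a description of the letters and does not show binding.

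The oxygen-sensing genes changed in both directions. With Y-320, the mRNAs of both abundant alpha subunits, HIF1A and EPAS1, were lower (0.793-fold and 0.745-fold of untreated), while EGLN3, a prolyl hydroxylase that is a classic hypoxia-inducible gene, was 3.06-fold higher. EGLN1, CITED2 and the beta subunit gene ARNT were higher by smaller amounts. VHL, EGLN2, HIF1AN and the scarce HIF3A did not pass the test. In counts, 4 of the 10 members were higher and 2 were lower, beside 26.2% and 25.4% of all genes tested. The 6 members called (60%) stand near the 51.5% of all genes tested that were called in either direction, so the number of members called is not a result about them. The libraries of both groups were fully apart for 7 members (59.2% of all genes tested), 4 above untreated (29.8%) and 3 below it (29.4%).

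**Figure D1:**
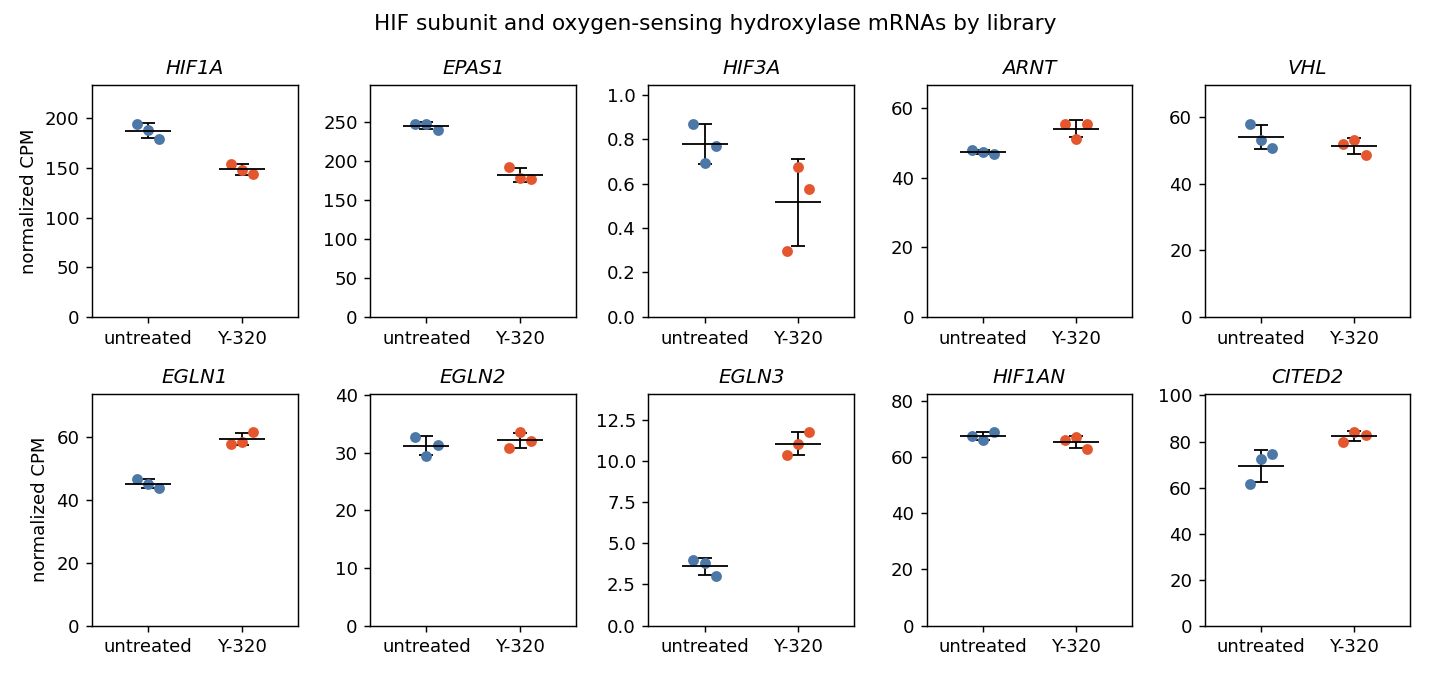
Normalized CPM (vertical axes, each from 0) of each of the 10 genes in the 3 untreated and 3 Y-320 libraries. Points are libraries, the long bar is the group mean and the whiskers are 1 SD; HIF1A and EPAS1 lie lower with Y-320, and EGLN3 rises from 3.60 to 11.

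HIF1A encodes HIF-1 alpha, the subunit best known for driving glycolytic genes. Its gene (ENSG00000100644) lies on chromosome 14 from 61695513 to 61748259 on the plus strand of GRCh38. Its mRNA was at 194.5, 188.4 and 179.2 normalized CPM in untreated replicates 1, 2 and 3 and at 154.3, 147.5 and 143.7 in Y-320 replicates 1, 2 and 3. Every treated library lay below every untreated one. The means were 187.4 ± 7.69 and 148.5 ± 5.37 (SD, n = 3 each), and HIF1A fell by 0.34 on the log2 scale (95% interval -0.42 to -0.25, edgeR adjusted p = 3.09e-05). On the opposite strand lie HIF1A-AS1 and HIF1A-AS3, antisense genes not analysed here, and since the strand setting of the counting is not given, their reads cannot be told apart from those of HIF1A. Antisense genes not analysed here also overlap HIF3A, VHL, EGLN3 and CITED2.

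EPAS1 encodes HIF-2 alpha, a close relative that shares the hydroxylation sites and is best known from endothelium and kidney. The gene (ENSG00000116016) lies on chromosome 2 from 46293667 to 46386697 on the plus strand, and none of its 31-base words occurs in another gene of the table. It had 247.4, 246.8 and 239.3 normalized CPM in untreated cells, against 192.3, 177.7 and 176.3 in treated cells. Again the groups were apart, with Y-320 replicate 1 the highest of the treated libraries. EPAS1 fell by 0.42 on the log2 scale (95% interval -0.50 to -0.35, edgeR adjusted p = 3.49e-06), from a mean of 244.5 ± 4.52 to one of 182.1 ± 8.83 (SD, n = 3 each).

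The balance between these 2 alpha subunits was compared within each library. The log2 ratio of EPAS1 to HIF1A counts was 0.38 ± 0.0353 in untreated libraries against 0.29 ± 0.0245 in treated ones (SD, n = 3 each). It was lower in all 3 treated libraries, by a difference of -0.09, with p = 0.1 in a two-sided exact permutation test, which cannot give less with 3 libraries a group. HIF3A, whose products include isoforms that restrain the other alpha subunits, was scarce as mRNA. The gene (ENSG00000124440, chromosome 19 from 46297042 to 46343433, plus strand) was estimated at 19.2, 14.5 and 17.0 counts in untreated libraries, against 6.81, 14.7 and 12.7 in treated ones. After scaling these were 0.869, 0.694 and 0.770 normalized CPM untreated and 0.298, 0.674 and 0.574 with Y-320, so the groups only just failed to overlap. Its log2 fold change of -0.55 did not pass (95% interval -1.30 to 0.21, edgeR adjusted p = 0.208), and without Y-320 replicate 1 the value was -0.27. At this depth the interval of HIF3A was wide and leaves room for changes of 0.406-fold to 1.15-fold.

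ARNT encodes the beta subunit (HIF-1 beta), which pairs with every alpha subunit and with the aryl hydrocarbon receptor, and which is not controlled by oxygen. The gene (ENSG00000143437) lies on chromosome 1 from 150809713 to 150876708 on the minus strand. Its untreated libraries were at 48.0, 47.5 and 46.9 normalized CPM and its treated libraries at 55.3, 51.2 and 55.5. All treated libraries were above the untreated ones, opposite to HIF1A and EPAS1. The rise was small, with a log2 fold change of 0.19 (95% interval 0.10 to 0.28, edgeR adjusted p = 0.00285).

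Among the 3 EGLN prolyl hydroxylases, EGLN3 rose most, EGLN1 rose less and EGLN2 did not pass. EGLN3 (PHD3; ENSG00000129521, chromosome 14 from 33924227 to 34462774, minus strand) was estimated at 88.0, 79.0 and 67.0 counts in untreated libraries, against 236.0, 241.0 and 260.0 in treated ones. In normalized CPM it had 3.99, 3.79 and 3.04 against 10.3, 11.03 and 11.7. The lowest treated library held more than the highest untreated one by a wide margin. The log2 fold change was 1.61 (standard error 0.114, 95% interval 1.36 to 1.87, edgeR adjusted p = 1.06e-06), and 98.3% of all genes tested had a smaller change in size. EGLN3 was the one member among the 833 genes (5.02% of those tested) that passed and changed by 1 or more log2 units. None of its 31-base words occurs in another gene of the table.

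EGLN1 encodes PHD2, the main hydroxylase of HIF-1 alpha in most cells. The gene (ENSG00000135766) lies on chromosome 1 from 231363751 to 231422287 on the minus strand. It had 46.5, 45.2 and 43.8 normalized CPM in untreated cells, against 57.8, 58.5 and 61.5 in treated cells. The groups were well separated and the treated libraries lay close together. Its log2 fold change was 0.39 (95% interval 0.30 to 0.48, edgeR adjusted p = 1.40e-05), a rise of 1.31-fold. Of its 31-base words, 4.69% occur in other genes of the table on the same strand, mostly in the pseudogene EGLN1P1. ENSG00000287856, a protein-coding gene that overlaps EGLN1 on the same strand, has no row, so words shared with it were not counted.

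EGLN2 encodes PHD1, a mainly nuclear member of the family. The gene (ENSG00000269858) lies on chromosome 19 from 40798996 to 40808434 on the plus strand. Its normalized CPM was 32.7, 29.4 and 31.3 untreated and 30.8, 33.5 and 32.0 with Y-320, so the groups overlapped. The log2 fold change was 0.04 (95% interval -0.07 to 0.16, edgeR adjusted p = 0.543), an interval that leaves room for changes of 0.950-fold to 1.11-fold. EGLN2 shares 28.9% of its 31-base words with RAB4B-EGLN2, a readthrough gene over the same exons, so reads could be divided between both rows. RAB4B-EGLN2 held 1.83 to 14.5 estimated counts per library, and with both rows summed the log2 fold change was 0.03.

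The log2 ratio of EGLN3 to EGLN1 counts was -3.66 ± 0.168 in untreated libraries against -2.43 ± 0.0498 in treated ones (SD, n = 3 each). It was higher in all 3 treated libraries, by 1.23 on the log2 scale, again with the lowest p of the two-sided exact permutation test, p = 0.1.

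**Figure D2:**
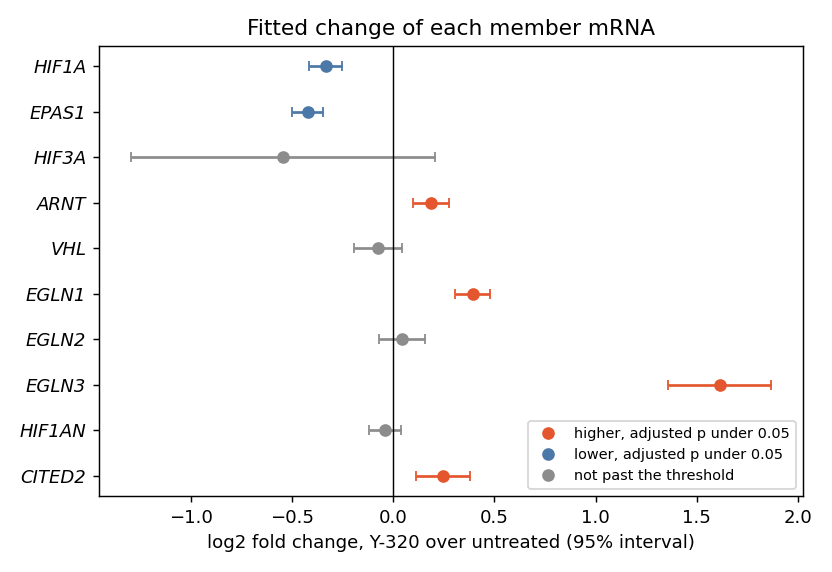
Log2 fold change of Y-320 over untreated (horizontal axis) for each member, with its 95% interval from the edgeR fit over 3 libraries per group. Orange points are higher and blue points lower at an adjusted p under 0.05, grey points did not pass; EGLN3 stands alone at 1.61, while HIF1A and EPAS1 lie below 0.

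The other 3 members act beside the EGLN enzymes. VHL, the recognition subunit of the ligase that marks hydroxylated alpha subunits (ENSG00000134086, chromosome 3 from 10141778 to 10153667, plus strand), had 58.1, 53.2 and 50.8 normalized CPM untreated and 52.0, 53.1 and 48.5 with Y-320. These overlap, and the log2 fold change was -0.08 (95% interval -0.20 to 0.04, edgeR adjusted p = 0.259). In VHL, 12.8% of the 31-base words occur in other genes of the table, with no more than 1.08% in any one of them.

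HIF1AN (ENSG00000166135, chromosome 10 from 100529072 to 100559998, plus strand) was at 67.4, 66.1 and 68.8 normalized CPM untreated and at 66.2, 67.1 and 62.9 with Y-320. Here too the groups overlapped. Its log2 fold change of -0.04 had a narrow interval (-0.12 to 0.04, edgeR adjusted p = 0.334), which spans 0.918-fold to 1.02-fold. The outer end of the GENCODE span of HIF1AN overlaps NDUFB8, a gene on the opposite strand with a log2 fold change of -0.20 (edgeR adjusted p = 0.00125). The 2 could share reads there if strand was not used. The RefSeq start of HIF1AN, just after position 100535942, lies outside NDUFB8, which ends at 100530000.

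CITED2 encodes a small protein that competes with the alpha subunits for CBP and p300 and so damps HIF output. Its gene (ENSG00000164442, chromosome 6 from 139371807 to 139374648, minus strand) had 61.6, 72.3 and 74.5 normalized CPM untreated and 80.0, 84.0 and 82.9 with Y-320. All treated libraries were higher, and untreated replicate 1 stood below the other untreated libraries. CITED2 rose by a log2 fold change of 0.24 (95% interval 0.11 to 0.38, edgeR adjusted p = 0.00631). Without untreated replicate 1 the value was 0.16 and still passed (edgeR adjusted p = 0.00538).

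Levels can be compared between genes only per length, so the normalized CPM was divided by the length of each gene's canonical GENCODE transcript in kilobases. In untreated cells HIF1A and EPAS1 stood level at 47.5 ± 1.95 and 47.4 ± 0.877 CPM per kilobase (SD, n = 3 each). CITED2 followed at 29.2 ± 2.90, then EGLN2 at 14.8 ± 0.792, VHL at 12.2 ± 0.834, EGLN1 at 10.4 ± 0.319 and ARNT at 10.1 ± 0.126. HIF1AN was at 5.22 ± 0.105, EGLN3 at 1.33 ± 0.185 and HIF3A at 0.133 ± 0.0150. Of these neighbours, HIF1A and EPAS1 overlapped between libraries, and so did EGLN1 and ARNT. HIF1A and EPAS1 stood above their common partner ARNT as mRNA, and HIF3A far below it.

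With Y-320 the top of this order closed up. HIF1A was at 37.6 ± 1.36, EPAS1 at 35.3 ± 1.71 and CITED2 at 34.6 ± 0.863 CPM per kilobase, and each overlapped with its neighbour. EGLN1 moved above VHL, at 13.7 ± 0.451 against 11.6 ± 0.547, and EGLN3 reached 4.08 ± 0.259, still below HIF1AN at 5.06 ± 0.171. The order depends on the transcript length used. Per kilobase of the union of all exons, CITED2 led with Y-320 at 32.1 ± 0.802 before HIF1A at 28.8 ± 1.04, and EGLN2 stood at 4.74 ± 0.253 untreated, below EGLN1 at 8.39 ± 0.257.

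Summed per kilobase of canonical transcript, the 3 alpha subunit mRNAs came to 95.04 ± 2.80 in untreated libraries against 73.0 ± 3.01 in treated ones, and the 3 EGLN mRNAs to 26.6 ± 1.06 against 33.0 ± 1.08 (SD, n = 3 each). The groups were apart for both sums, with 92.0 to 97.4 against 70.7 to 76.4 for the alpha subunits and 25.8 to 27.8 against 31.8 to 33.8 for the hydroxylases. The sum of hydroxylase mRNA over that of alpha subunit mRNA was 0.280 untreated and 0.452 with Y-320. With the union of all exons as length, it was 0.195 untreated and 0.323 with Y-320. These sums were chosen after the values of the genes were seen and are given without a test. Within the EGLN sum, EGLN3 held 5.0% ± 0.618 untreated and 12.3% ± 0.446 with Y-320, while EGLN2 went from 55.8% ± 1.43 to 46.3% ± 1.22. Per kilobase of all exons EGLN1 held the larger share, with 61.6% ± 0.945 untreated and 63.3% ± 0.918 with Y-320, and the share of EGLN3 was 3.59% ± 0.424 and 8.61% ± 0.285.

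**Figure D3:**
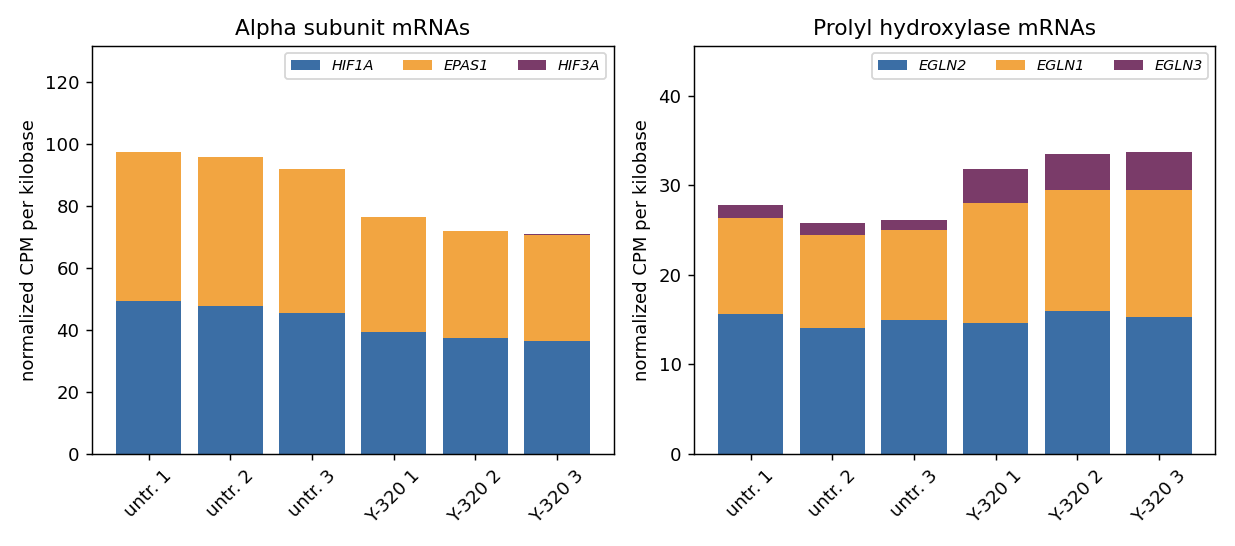
Normalized CPM per kilobase of canonical transcript (vertical axes, from 0) in each library, stacked over the 3 alpha subunit genes on the left and the 3 prolyl hydroxylase genes on the right. The alpha sum is lower in the Y-320 libraries (70.7 to 76.4 against 92.0 to 97.4), the EGLN sum is higher, and HIF3A is too scarce to see.

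The other genes of the pathway were taken from lists written from general knowledge, with earlier results of these data known. Of 20 pathway partners, all tested, 5 were higher (25%) and 4 lower (20%), beside 26.2% and 25.4% of all genes tested. These shares stand near those of all genes, so the counts are not a result about the partners. Their median log2 fold change was -0.01, beside a median of 0.00 over all genes tested. ARNT2, a paralog of ARNT, had 3.14 ± 0.558 normalized CPM untreated against 8.77 ± 2.12 treated (SD, n = 3 each) and rose by 1.48 on the log2 scale (edgeR adjusted p = 1.08e-04). Both SIAH ligases, which mark prolyl hydroxylase proteins for degradation, rose, SIAH2 by 0.91 (edgeR adjusted p = 1.62e-08) and SIAH1 by 0.61 (edgeR adjusted p = 7.88e-06). MTOR, a kinase that promotes translation of HIF1A mRNA, rose by 0.21 (edgeR adjusted p = 1.90e-04). This is a level of mRNA and not of kinase activity. In the paper, the mTOR inhibitor rapamycin largely left the effects of Y-320 on protein, ribosomal RNA and p53 in place.

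Among the partners that fell, CITED4, a relative of CITED2 that also binds CBP and p300, went the opposite way from CITED2, from 21.7 ± 1.07 to 10.3 ± 0.511 normalized CPM (SD, n = 3 each). Its log2 fold change was -1.07 (edgeR adjusted p = 3.40e-07). HSP90AA1, a chaperone of HIF-1 alpha, fell by 0.47 (edgeR adjusted p = 7.99e-07), and its cochaperone PTGES3 fell by 0.14 (edgeR adjusted p = 6.02e-04). CUL2, the scaffold of the VHL ligase, fell by 0.11 (edgeR adjusted p = 0.00845), while the other parts of that ligase, ELOB, ELOC and RBX1, had log2 fold changes of -0.03, 0.06 and 0.01 that did not pass. With upper-quartile scaling the partners split into 4 higher and 7 lower, and without untreated replicate 1 into 4 and 6.

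Of the genes that HIFs switch on, most were higher with Y-320. All 18 glycolytic HIF targets were higher, with a median log2 fold change of 0.43, beside 26.2% of all genes tested that were higher. The largest rises were those of ENO2 (1.87, edgeR adjusted p = 2.40e-09), an enolase, and HK2 (1.42, edgeR adjusted p = 5.49e-09), a hexokinase. PFKFB4, which makes an activator of phosphofructokinase, rose by 1.05 (edgeR adjusted p = 1.05e-05), and PDK1, which keeps pyruvate out of mitochondria, by 1.05 (edgeR adjusted p = 2.40e-08). The smallest rises were those of PGAM1 (0.12), SLC2A1 (0.26), ENO1 (0.28) and HK1 (0.31).

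Of 30 other HIF targets, 29 were tested, 24 were higher (82.8%) and 3 lower (10.3%), beside 26.2% and 25.4% of all genes tested. Their median log2 fold change was 0.71. The hypoxia gene for erythropoietin, EPO, named after its values were seen, had at most 1 count in each library and was not tested. CA9, a carbonic anhydrase, rose by 3.13 (edgeR adjusted p = 2.61e-07), and NDRG1 by 2.62 (edgeR adjusted p = 9.23e-10), from 109.2 ± 11.2 to 670.2 ± 36.4 normalized CPM (SD, n = 3 each). VLDLR and STC2 rose by 2.48 and 2.11 (edgeR adjusted p = 5.64e-08 and 2.11e-09). Both are also known to respond to ATF4, and which factor acts on the genes of this list was not tested. BHLHE41, a clock repressor, fell by 0.60 (edgeR adjusted p = 3.60e-06) and HMOX1, the heme oxygenase, by 0.22 (edgeR adjusted p = 0.0340). TFRC, the transferrin receptor, had the smallest rise at 0.33 (edgeR adjusted p = 1.09e-06). CA12 and FLT1 did not pass, at -0.21 and 0.20. EGLN3, at 1.61, lay within the range of these targets, and EGLN1 at 0.39 and CITED2 at 0.24 lay below the median of both lists.

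**Figure D4:**
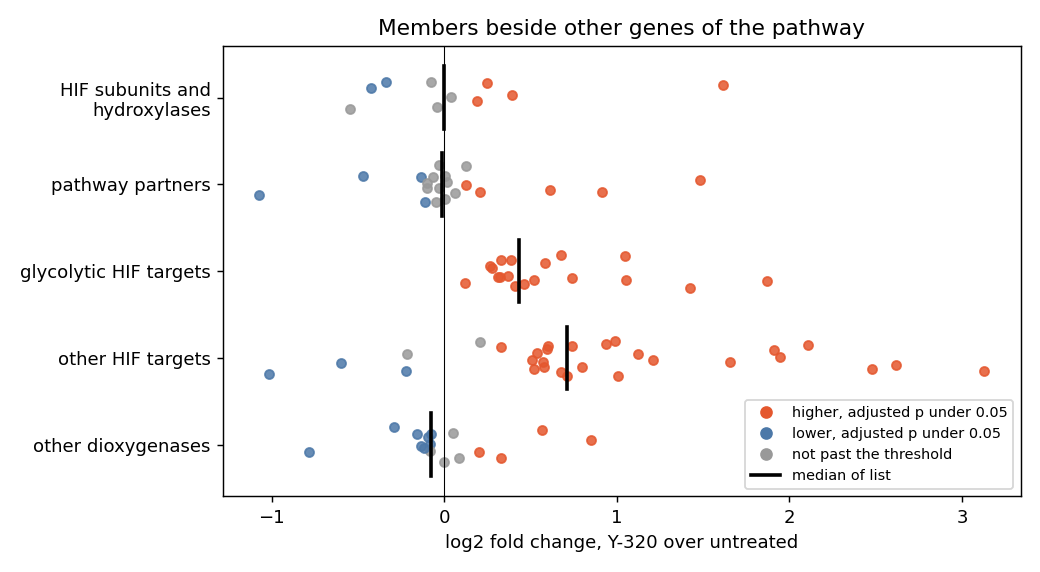
Log2 fold change of Y-320 over untreated (horizontal axis) of each tested gene in the 5 lists, 1 point a gene, orange if higher and blue if lower at an adjusted p under 0.05 and grey if not past it; the black bar is the median of the list. The 10 members spread on both sides of 0, while all 18 glycolytic targets and 24 of 29 other targets passed as higher. Over all genes tested, 26.2% passed as higher.

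Other dioxygenases that need oxygen, among them histone and DNA demethylases, were split. Of 16 such genes, 4 were higher (25%) and 8 lower (50%), beside 26.2% and 25.4% of all genes tested. Their median log2 fold change was -0.08. The split depends on how genes were assigned, since some dioxygenases were counted in other lists. P4HA1, P4HA2 and KDM3A, counted among the other HIF targets, rose by 1.21, 1.12 and 0.60. P4HTM, counted among the pathway partners, did not pass at 0.12. ALKBH5, an RNA demethylase, rose by 0.85 (edgeR adjusted p = 1.01e-08). KDM4C and KDM4B, histone demethylases, rose by 0.56 and 0.33 (edgeR adjusted p = 2.81e-05 and 6.04e-04), and KDM6B by 0.20 (edgeR adjusted p = 0.0190). TET1 and TET2, which oxidise methylated cytosine in DNA, fell by 0.79 and 0.29 (edgeR adjusted p = 2.34e-04 and 2.75e-04). KDM4A fell by 0.16 (edgeR adjusted p = 0.00557) and KDM2B by 0.13 (edgeR adjusted p = 0.0260). Many of these changes are small, and without untreated replicate 3 the split was 5 higher and 4 lower.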

How the data were processed

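RNA of 3 untreated and 3 Y-320-treated samples of HDQ-P1 cells was sequenced on an Illumina instrument. The authors deposited estimated counts per Ensembl gene, made with kallisto 0.46.1 on the hg38 transcriptome according to the submitters' processing notes, and not normalized. The Ensembl release and the strand setting are not given in the sources used here. The methods of the study combine several pipelines without naming them, so edgeR was used in their place.

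Identifiers were matched to gene names without their version, 35390 of 40295 with a match. Estimated counts were rounded, filtered by filterByExpr with its minimum count of 10 and minimum total of 15, scaled by TMM and fitted with the quasi-likelihood test of edgeR 4.0.16 in R 4.3.3, without a block. Intervals of fold changes are 95% intervals from that fit. One count was worth 0.0440 to 0.0475 CPM, and intervals cover the spread between libraries only. Coordinates and lengths are from GENCODE 44 on GRCh38, the build the labels name. Words of 31 bases of each member were searched in transcripts of the other genes that have a row. DESeq2 1.42.0 and limma-voom (limma 3.58.1) served as other tests, and filters, scalings, a replicate block, unrounded counts and left-out libraries as other settings. Plots were made with matplotlib 3.10.9 in Python 3.11.15.

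The members and lists were chosen with earlier results of these data known. The rule for naming genes takes all members and, from each list, up to 4 genes with the largest and 4 with the smallest log2 fold change among those past the threshold with a mean of at least 1 CPM, and genes that share sequence or a locus with a member. ELOB, ELOC, RBX1, P4HTM, P4HA1, P4HA2, KDM3A, CA12, FLT1, EPO, EPCAM, PECAM1, CDH5 and the fibroblast markers fall outside it and were named after their values were seen. A few list genes are not reported here by name, and the list counts include them.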

Additional observations from a re-analysis of the deposited data

How the results depend on the processing

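The 6 members called, 4 higher and 2 lower, were 6 under each other filter, test, scaling, the replicate block, unrounded counts, a threshold of 0.01 and each left-out library. All 140 refitted fold changes of the members kept their direction and their side of the threshold; HIF3A could not be fitted when each library had to hold 10 or more counts. The number of members called under the replicate block was 6, and the block changed no member's call. Same-numbered libraries had correlations of deviations from the group means of -0.01, 0.01 and 0.00 across genes. No pairing by number was seen, but with 3 libraries a group this check cannot exclude it. With each library left out, EGLN3 ranged from 1.5 to 1.69, EGLN1 from 0.37 to 0.41, EPAS1 from -0.47 to -0.40, HIF1A from -0.37 to -0.31 and ARNT from 0.17 to 0.22. Levels per kilobase moved beyond 1 SD with the exon union as length for 18 of 20 values. HIF3A, with 6.81 to 19.2 estimated counts per library, is the member whose value depth limits most, with left-out libraries giving -0.78 to -0.27. CITED2 gave 0.16 to 0.30. Of the lists, 8 to 11 partners, 18 glycolytic targets, 25 to 27 other targets and 8 to 12 dioxygenases were called over all settings.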
